A study of Mus musculus with 5 samples.

Results

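In TGF-β1-treated MS5 cells, 11485 sites were listed as bound by p300 in the absence of pioglitazone and were listed neither for p300 in its presence nor for c-Jun under either treatment. They were chosen by their presence in 1 peak list and their absence from the other 3, so absence of p300 with pioglitazone is how they were selected and not a finding. Peaks of the 4 deposited lists that overlapped by at least 1 bp were merged, which gave 44718 sites, of which these made up 25.7% (95% interval 25.3 to 26.1). Each of the 11485 sites was a single peak of 247 bp, and together they covered 2.84 Mb.

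MS5 is an established mouse bone marrow stromal line, used here at passage 11. Every library came from cells given TGF-β1 at 10 ng/mL for 5 h, either alone or together with pioglitazone at 20 ng/mL (the dose as the labels give it, not checked here), and fixed with formaldehyde; the series has no group without TGF-β1. Antibodies to p300 or to c-Jun were used for the precipitation, and the 4 ChIP libraries were p300 with TGF-β1, p300 with TGF-β1 and pioglitazone, c-Jun with TGF-β1, and c-Jun with TGF-β1 and pioglitazone. A pooled input, the other sample of the series, was not analysed here. Each group was 1 library, so no difference between treatments has a replicate check, no p-value is given, and peak positions cannot test the identity of the cells. The labels name no separate cultures, clones or batches.

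p300 is a coactivator that acetylates histones. It does not read DNA sequence itself and is brought to enhancers and promoters by transcription factors, among them the SMAD proteins that TGF-β receptors activate and AP-1, of which c-Jun is a subunit. In stromal cells TGF-β drives the production of extracellular matrix, which in myelofibrosis, the disease named in the title of the series, fills the marrow with scar tissue. Pioglitazone is a drug that activates PPARγ, a nuclear receptor known for its part in fat cell formation. Sites listed for p300 and not for c-Jun are places where no listed c-Jun peak overlapped the p300 peak. c-Jun may still be there, below what its libraries could show.

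The p300 list without pioglitazone held 31466 peaks (31465 sites), and the p300 list with it held 21994. The c-Jun lists held 17044 peaks without pioglitazone and 13325 with it. Of the p300 sites without pioglitazone, 15249, or 48.5%, were not listed for p300 with it. The sites described here made up 75.3% (74.6 to 76.0) of those 15249, and 36.5% (36.0 to 37.0) of all p300 sites without pioglitazone. Among the 16216 p300 sites listed under both treatments, the share without c-Jun was 37.0% (36.3 to 37.8). That class of 6001 sites, listed for p300 with and without pioglitazone and for c-Jun under neither, is the comparator used throughout. The shares of 75.3% and 37.0% were not compared at like places in the p300 list, and overlap with c-Jun also changed along it. The mirror class, listed only for p300 with pioglitazone, held 4755 sites, or 21.6% of the p300 sites with pioglitazone. All intervals cover counting error only, and sites are not replicates of a treatment.

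The lists give no height or enrichment, and the order of the rows was the only available stand-in for peak strength. Rows lay in 781 blocks that were each sorted by chromosome and position, the longest of 414 rows, and 65.1% of rows lay in blocks of 100 or more; inside a block the order says nothing about strength. The sort key of the rows is stated nowhere in the labels or the lists. Sites listed only without pioglitazone stood late in this order. The first was row 238, 25% of them came before row 16838, the median was row 23057, or 73.3% of the way down, and 75% came before row 27624. The comparator class had its median at 43.7% of the list, and the 5762 sites present in all 4 lists had theirs at 16.2%. The mirror class had its median at 75.2% of its own list, the shorter p300 list with pioglitazone.

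Few of the sites stood near the top. The first 1% of the p300 list, 315 rows, held 1 of them, the first 5% held 19, and the first 50% held 2463, or 21.4% of them. In 10% steps of the list the share of peaks that belonged to the class rose at every step. It was 1.78% (1.35 to 2.31) in the first step, where 56 of 3146 peaks belonged, 31.3% (29.7 to 32.9) in step 5 and 75.8% (74.3 to 77.3) in step 10, where 2386 of 3147 belonged. Both parts of the rule moved along the list. Of the p300 peaks that overlapped no c-Jun peak, 13.4% (10.3 to 17.0) were in the class in the first step and 89.3% (88.1 to 90.5) in the last, while p300 peaks kept under pioglitazone and overlapping c-Jun went from 85.1% of the first step to 4.45% of the last.

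**Figure D1:**
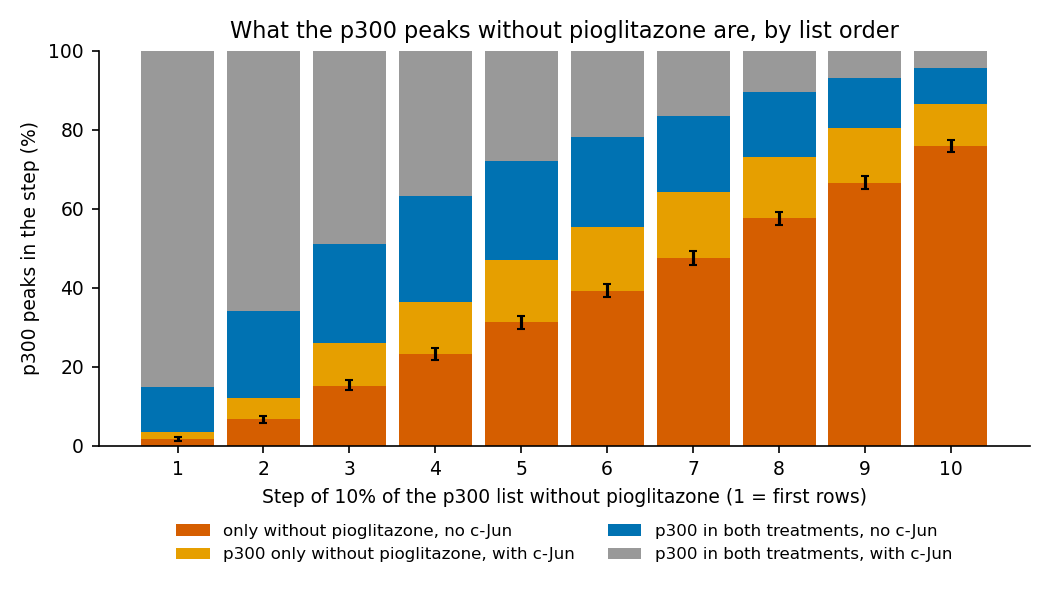
Share of p300 peaks without pioglitazone (%) in each 10% step of the deposited list, split by whether p300 was also listed with pioglitazone and whether the site overlapped c-Jun; bars are exact 95% intervals for the sites listed only without pioglitazone, which rise from 1.78% of the first step to 75.8% of the last.

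The size of the class depended on the lengths of the lists. The p300 list without pioglitazone was cut to its first 21994 rows, the length of the other p300 list, which stayed whole. Then 5173 sites were listed only without pioglitazone and 5979 only with it, so the order of these 2 classes turned. The cut took away the late rows, where most of the sites stand, so this is not a symmetric check. At equal length 7668 p300 sites were unmatched in each direction. Equal counts follow from equal list lengths when nearly every match joins 1 peak of each list, so they are not a result. The 5173 and 5979 differ only through how many unmatched sites overlap c-Jun. Sequencing depth is unknown, and list length cannot be told apart from treatment with 1 library a group.

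At the edge of the rule, the site at chr15:95635661-95635907 (row 3129) touched the p300 peak with pioglitazone at chr15:95635434-95635660 without sharing a base, the centres being 237 bp apart. Just outside it, the site at chr11:117590248-117590494 (row 7253) shared 1 bp with a p300 peak with pioglitazone whose centre was 236 bp away. A p300 peak with pioglitazone lay no more than 50 bp from the edge of 142 of the sites, and 153 of the 6001 comparator sites were joined by an overlap of 50 bp or less.

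Most sites had no p300 peak with pioglitazone near them. The nearest one lay more than 10 kb away for 7379 sites (64.2%) and more than 100 kb away for 1221 (10.6%), with a median distance of 16877 bp between centres. For 464 sites (4.04%) it lay within 500 bp, for 503 between 500 bp and 1 kb, for 1386 between 1 and 5 kb, and for 1753 between 5 and 10 kb. The kind of neighbour changed with distance. Within 500 bp, 450 of the 464 nearest peaks, 97.0% (95.0 to 98.3), were themselves not listed for p300 without pioglitazone. That share was 41.0% (36.6 to 45.4) between 500 bp and 1 kb, 30.4% (28.0 to 32.9) between 1 and 5 kb and 22.4% (20.5 to 24.4) between 5 and 10 kb. The shortest distance between centres within the p300 list without pioglitazone was 358 bp, which by itself leaves little room for a neighbour listed in both. Seen from the other side, 341 of the 4755 mirror sites (7.17%) had one of the 11485 sites within 500 bp, 502 (10.6%) within 1 kb and 1224 (25.7%) within 10 kb. For these 341 the lists place p300 peaks under the 2 treatments side by side without overlap, and the rule counts both as unmatched.

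**Figure D2:**
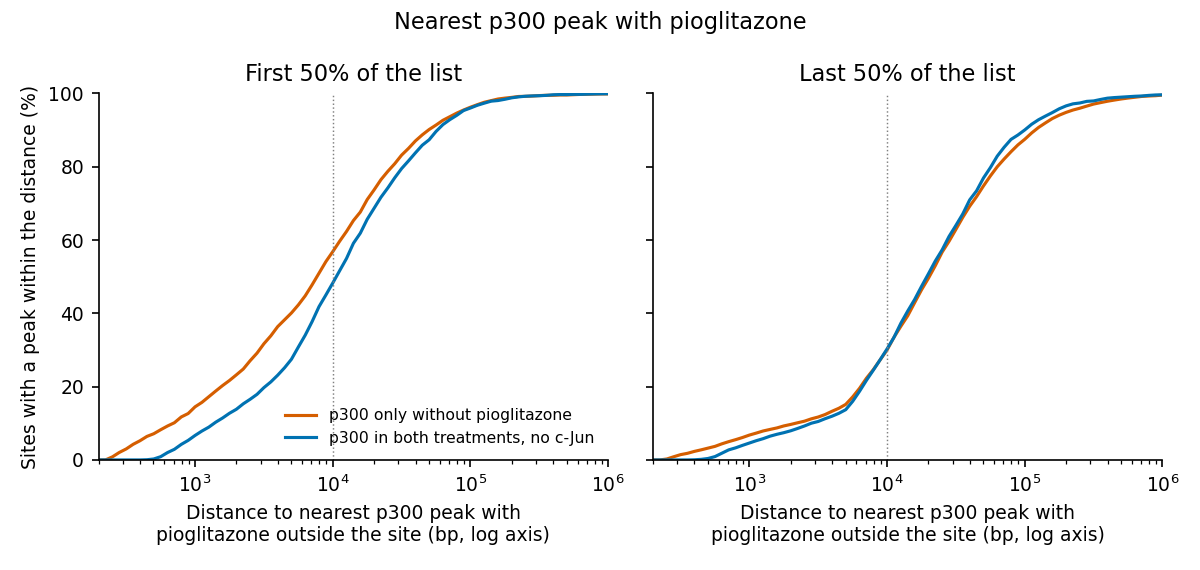
Cumulative share of sites (%) against the distance in bp (log axis) to the nearest p300 peak with pioglitazone outside the site, for the first and the last 50% of list rows; the dotted line marks 10 kb. In the first 50% the curve of sites listed only without pioglitazone lies above that of the comparator class from the shortest distances to beyond 10 kb (56.8% against 48.3% at 10 kb), and in the last 50% the curves meet near 10 kb (30.0% and 30.3%). The curves pool all rows of each 50%. Inside 10% steps the differences at 10 kb were 13.9 points (11.3 to 16.5) and 3.86 (1.78 to 5.95).

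Neighbours were compared with those of the comparator class inside each 10% step of the list, because the 2 classes stand at different places in it, and the differences were combined over the steps. Without this stratification, sites listed only without pioglitazone had fewer neighbours of every kind within 10 kb. A p300 peak with pioglitazone lay within 10 kb of 35.8% (34.9 to 36.6) of them against 40.7% of comparator sites, another p300 peak without pioglitazone near 42.6% against 50.1%, a c-Jun peak without pioglitazone near 27.8% (27.0 to 28.6) against 33.5%, and a c-Jun peak with it near 22.4% against 27.6%. Within steps the sign turned for all 4. The difference was 8.04 percentage points (6.42 to 9.67) for p300 with pioglitazone, 3.78 (2.10 to 5.46) for another p300 peak without it, 3.85 (2.27 to 5.43) for c-Jun without it and 3.68 (2.196 to 5.17) for c-Jun with it. For p300 with pioglitazone this is the contrast that chose the sites, and a comparator site already holds such a peak, which can have no other within 324 bp in that list, so the value is a description. At 500 bp that difference was 4.93 points (4.39 to 5.46), with 4.04% of the sites and 0.267% of comparator sites having a neighbour.

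The excess of neighbours was larger in the upper rows. In the first step, 87.5% (75.9 to 94.8) of the 56 sites had a p300 peak with pioglitazone within 10 kb against 62.2% (56.9 to 67.2) of 362 comparator sites, and 80.4% (67.6 to 89.8) had a c-Jun peak without pioglitazone against 54.97% (49.7 to 60.2). Over the first 50% of rows the differences within steps were 13.9 points for p300 with pioglitazone, 8.66 for another p300 peak without it, 10.6 for c-Jun without it and 9.49 for c-Jun with it. Over the last 50% they were 3.86 (1.78 to 5.95), 0.284 (-1.93 to 2.50), -0.961 (-2.96 to 1.04) and -0.472 (-2.29 to 1.35), and the intervals of the last 3 hold 0. The first of these, for p300 with pioglitazone, is the contrast that chose the sites. In these rows it was already 3.28 points (2.79 to 3.77) at 500 bp, with 3.19% of the sites and 0.358% of comparator sites having a neighbour. It is a description and cannot be set against the other 3 lists. In step 6 a p300 peak with pioglitazone lay within 10 kb of 44.7% (41.9 to 47.6) of the sites and 33.4% (30.0 to 37.0) of comparator sites. In step 10 the order was the other way round, with p300 with pioglitazone near 18.6% (17.1 to 20.2) of the sites and 23.9% (19.03 to 29.2) of comparator sites. These 2 intervals overlap. c-Jun without pioglitazone lay near 15.5% (14.1 to 17.0) against 22.8% (18.1 to 28.1).

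**Figure D3:**
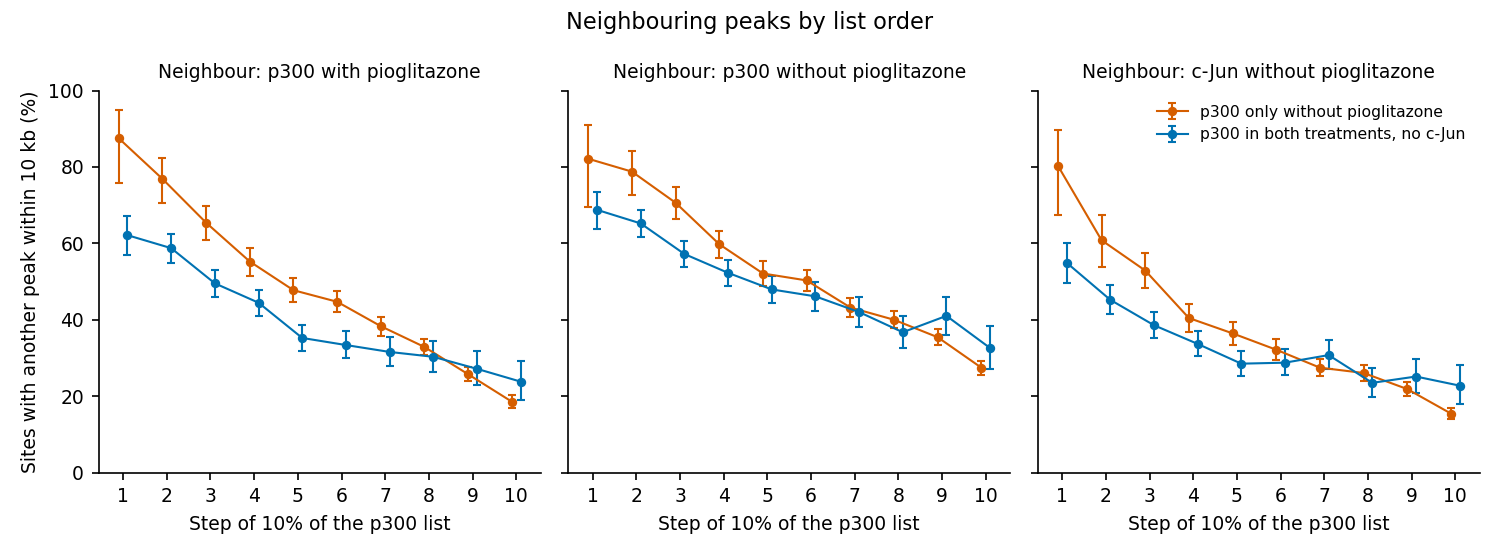
Share of sites (%) with a neighbouring peak of the named list within 10 kb, by 10% step of the p300 list without pioglitazone, for sites listed only without pioglitazone and for sites listed for p300 in both treatments without c-Jun; bars are exact 95% intervals. Sites listed only without pioglitazone start higher (87.5% against 62.2% for p300 with pioglitazone) and end lower (18.6% against 23.9%, with overlapping intervals).

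The neighbour was often a peak higher in the same list. A p300 peak without pioglitazone that stood in an earlier row lay within 10 kb of 31.6% (30.7 to 32.4) of the sites and of 28.5% (27.4 to 29.7) of the comparator class. Among the first 50% of rows these shares were 40.0% (38.1 to 42.0) and 28.1% (26.7 to 29.7). Among the last 50% they were 29.3% and 29.0%. These shares were not compared inside steps. A later row has more earlier rows that can lie near it, so they mix the class with its place in the list.

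The 10 sites first in the list show the crowded surroundings of the upper rows. The highest, chr2:148345654-148345900 (row 238), lay 2184 bp from a p300 peak with pioglitazone in row 96 of its list, at a site present in all 4 lists. The next ones, chr8:87505018-87505264 (row 351) and chr1:194566309-194566555 (row 546), lay 3472 and 3518 bp from p300 peaks that were listed under both treatments without c-Jun. Of the 10, 9 had a p300 peak with pioglitazone within 5 kb and 8 a c-Jun peak without pioglitazone within 10 kb.

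For 4 of these 10 the nearest p300 peak with pioglitazone was closer than 500 bp. The site at chr17:88249248-88249494 (row 600) lay 407 bp from one in row 696, chr11:78894810-78895056 (row 635) lay 289 bp from one in row 206, and chr6:113640521-113640767 (row 868) lay 429 bp from one in row 238. All 3 of these neighbours were peaks listed only for p300 with pioglitazone. The fourth, chr13:41758194-41758440 (row 673), had its neighbour 401 bp away at a site that c-Jun occupied under both treatments, 451 bp from it without pioglitazone and 475 bp with it. Each of these 4 neighbours stood in the first 951 rows of the p300 list with pioglitazone, so a row high in one list faced a row high in the other.

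Of the remaining first sites, chr6:114840848-114841094 (row 679) lay 1808 bp from a site of all 4 lists. The site at chr16:24494679-24494925 (row 842) lay 3697 bp from a p300 peak with pioglitazone and 908 bp from a c-Jun peak with it. Far from all of these neighbours stood chr8:20020268-20020514 (row 835), whose nearest p300 peak with pioglitazone was 1228422 bp away and whose nearest c-Jun peaks were 24612 bp away without pioglitazone and 25938 bp away with it.

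Of the named sites from the middle and the end of the list, 5 of 6 stood more than 10 kb from a p300 peak with pioglitazone. Which site comes exactly in the middle is set by position inside a block. With chromosome names ordered as text, the 3 last, in rows 31463, 31465 and 31466, did not all lie in the same block. The 3 in the middle (rows 23056 to 23058), all on chromosome 15, were chr15:11465945-11466191 at 11708 bp, chr15:12047902-12048148 at 385 bp and chr15:26701875-26702121 at 17400 bp. The 3 last were chr4:15611771-15612017 at 260615 bp, chr16:41523422-41523668 at 146590 bp and a site on chromosome 18 at 754884 bp.

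c-Jun around the sites was read from lists that took part in the rule only through overlap. Of the c-Jun sites without pioglitazone, 7892 of 17044, or 46.3%, were also listed with it. Within 10 kb of a site listed only without pioglitazone this share was 45.5% (43.9 to 47.2) of 3436 c-Jun sites, and elsewhere it was 46.5% (45.7 to 47.3). Compared inside 10% steps of c-Jun rows, the difference was -1.72 points (-3.39 to -0.0522). It was larger close by, with 40.5% (38.2 to 42.9) of 1692 c-Jun sites kept within 5 kb and 39.0% (35.1 to 43.1) of 584 kept within 1 kb, which within steps came to -4.12 points (-6.34 to -1.90) and -4.83 (-8.46 to -1.20). Set against c-Jun sites near a comparator site and near none of the 11485, the difference was -1.34 points (-4.71 to 2.02) at 5 kb and -0.0686 (-2.62 to 2.48) at 10 kb, and both intervals hold 0. The lower share of c-Jun sites kept was thus not told apart from that near p300 sites kept under both treatments. Among c-Jun sites without p300 the sign was the other way close by, with 21.9% (18.6 to 25.5) of 584 kept within 5 kb against 17.0% (15.8 to 18.3) elsewhere, a difference of 3.25 points (0.130 to 6.37) within steps. It was 6.23 (1.40 to 11.1) at 1 kb, but 0.577 (-1.91 to 3.07) at 10 kb and -0.460 (-2.49 to 1.57) at 25 kb. Near the comparator class 27.9% (23.6 to 32.6) of 401 such c-Jun sites were kept within 5 kb. Set against these, the difference within steps was -3.04 points (-7.86 to 1.78), an interval that holds 0.

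The opposite change was also seen close by. Of the c-Jun sites with pioglitazone, 5433 of 13325, or 40.8%, were not listed without it. Within 5 kb of a site listed only for p300 without pioglitazone the share was 47.3% (44.6 to 50.1) of 1302 against 40.1% (39.2 to 40.9) elsewhere, a difference of 5.85 points (3.26 to 8.45) within steps. Against c-Jun sites near the comparator class it was 4.23 points (0.316 to 8.14) at 5 kb, but 2.37 (-4.30 to 9.04) at 1 kb, -0.687 (-3.60 to 2.23) at 10 kb and -2.24 (-4.58 to 0.109) at 25 kb, so the sign turned with distance and 5 kb alone of these 4 gave an interval without 0. At 10 kb the shares were 40.9% and 40.7%, a difference of 0.201 points (-1.72 to 2.12). Taking c-Jun sites with and without p300 as 1 group, those within 5 kb were therefore listed in 1 treatment alone more often, in both directions, than those further away. The mix of the 2 kinds was not held fixed in this. Of the c-Jun sites without pioglitazone, 584 of 1692 within 5 kb were without p300, against 3793 of 15352 elsewhere.

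p300 sites that overlapped c-Jun and lay near these sites were examined in the same way. Within 10 kb of the sites, p300 was not listed with pioglitazone at 26.4% (24.7 to 28.1) of 2647 p300 sites with c-Jun, against 27.1% (26.2 to 27.9) elsewhere. The difference within steps was 1.38 points (-0.268 to 3.03) at 10 kb, which holds 0, and 2.75 (0.271 to 5.22) at 5 kb. Against those near the comparator class the difference was -3.02 points (-5.51 to -0.525) at 10 kb and -4.77 (-8.58 to -0.957) at 5 kb. At 1 kb the differences from elsewhere and from the comparator class were -0.886 (-6.07 to 4.29) and -0.253 (-8.12 to 7.61). At 25 kb they were 0.857 (-0.446 to 2.16) and -0.731 (-2.61 to 1.15), so all intervals at these distances hold 0. The direction at neighbouring p300 sites with c-Jun therefore depended on what they were set against with both intervals clear of 0 at 5 kb alone.

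Joining all peaks whose centres lay no more than 10 kb apart gave 27854 domains, and 10145 of them held at least 1 of the sites. In 5533 of those 10145, or 54.5% (53.6 to 55.5), the sites were alone, with no other kind of peak. A single site made up the whole domain in 5119 cases, 44.6% of all the sites, while 372 domains consisted of 2 of them, 39 of 3 and 3 of 4. Another 38.7% of the sites (37.8 to 39.6) lay in domains that also held a p300 peak with pioglitazone.

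The 3 domains made of 4 such sites were chr17:31962559-31979257, with rows 6107, 8879, 10036 and 23695, chr1:45361204-45378552, with rows 12580 to 17643, and chr12:112680775-112699970, with rows 12249 to 29524. These stretches measured 16.7, 17.3 and 19.2 kb. That they held no listed peak of p300 with pioglitazone or of c-Jun follows from how they were chosen. The next in order were chr10:127103950-127114009 (highest row 5012) and chr17:5926761-5937758 (highest row 8000), each with 3 sites.

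Mixed domains show what stayed listed beside the sites. In chr1:93333195-93356229, 5 of 6 p300 peaks were listed only without pioglitazone, in rows 4333 to 11400. The sixth, at the right edge in row 6025, stayed listed with pioglitazone in row 1928 and overlapped c-Jun peaks that were high in both c-Jun lists, in rows 205 and 309. In the list without pioglitazone, 3 of the 5 stood above that sixth peak, in rows 4333, 4545 and 5335.

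In chr19:4037804-4071965, 5 of 6 p300 peaks were again in the class, but low in the list, with the highest in row 15619. The only p300 peak with pioglitazone there lay at chr19:4045850-4046076, beside one of them at chr19:4046122-4046368. In chr7:138079258-138123990, 3 of 8 p300 peaks without pioglitazone overlapped one listed with it, as did 3 of 4 c-Jun peaks. In chr11:117785835-117877386, 7 of 13 p300 peaks and 4 of 7 c-Jun peaks did, and 3 p300 and 3 c-Jun peaks were listed only with pioglitazone. In chr14:8675391-8722126, 5 of 9 p300 peaks and 2 of 4 c-Jun peaks did. In the chromosome 11 domain 3 of the 4 sites listed only without pioglitazone stood between p300 peaks that stayed listed, and the other, in row 30831, was at the left edge. The site 37.9 kb from the start of that domain had a p300 peak listed only with pioglitazone beside it at 39.1 kb.

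**Figure D4:**
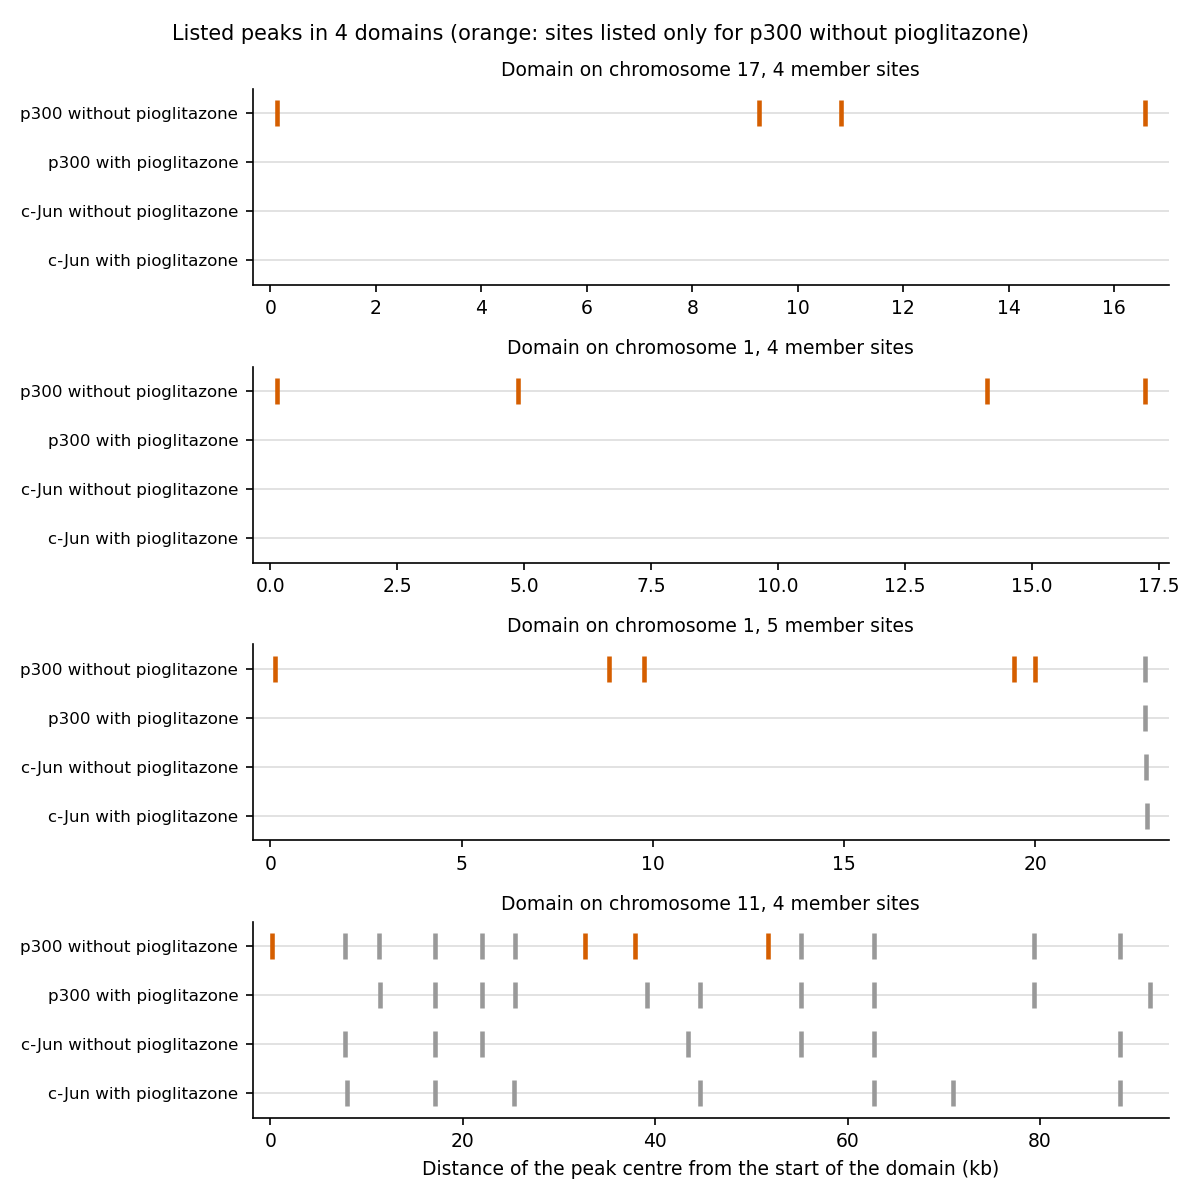
Listed peaks in 4 domains, as distance of the peak centre from the start of the domain (kb), 1 row for each list; orange marks are sites listed only for p300 without pioglitazone and grey marks are all other peaks. The upper 2 domains, chosen for holding such sites alone, hold 4 each, the third holds 5 beside 1 site of all 4 lists, and the fourth holds 4 among 10 p300 peaks listed with pioglitazone.

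Every autosome held sites of the class. As a share of its p300 peaks without pioglitazone, the lowest was chromosome 18 with 34.5% (31.7 to 37.4) and the highest autosome was chromosome 12 with 41.1% (38.2 to 44.0). The share was 43.8% (40.2 to 47.4) on chromosome X, against 36.3% on all the others. p300 peaks on chromosome X stood late in the list, with a median at 71.7% of its length. Within steps of the list the sign for chromosome X turned, to -6.35 points (-9.34 to -3.35). The highest differences within steps were on chromosome 19, at 7.70 points (5.07 to 10.3), chromosome 10, at 5.31 (3.51 to 7.12), and chromosome 6, at 4.16 (2.23 to 6.08), and the lowest on an autosome was on chromosome 4, at -4.33 (-6.55 to -2.11). Of 20 chromosomes, 4 had an interval above 0, 6 an interval below 0 and 10 an interval that holds 0; the 2 p300 peaks on chromosome Y were not in the class. Copy number of the chromosomes in this line was not measured here.

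**Figure D5:**
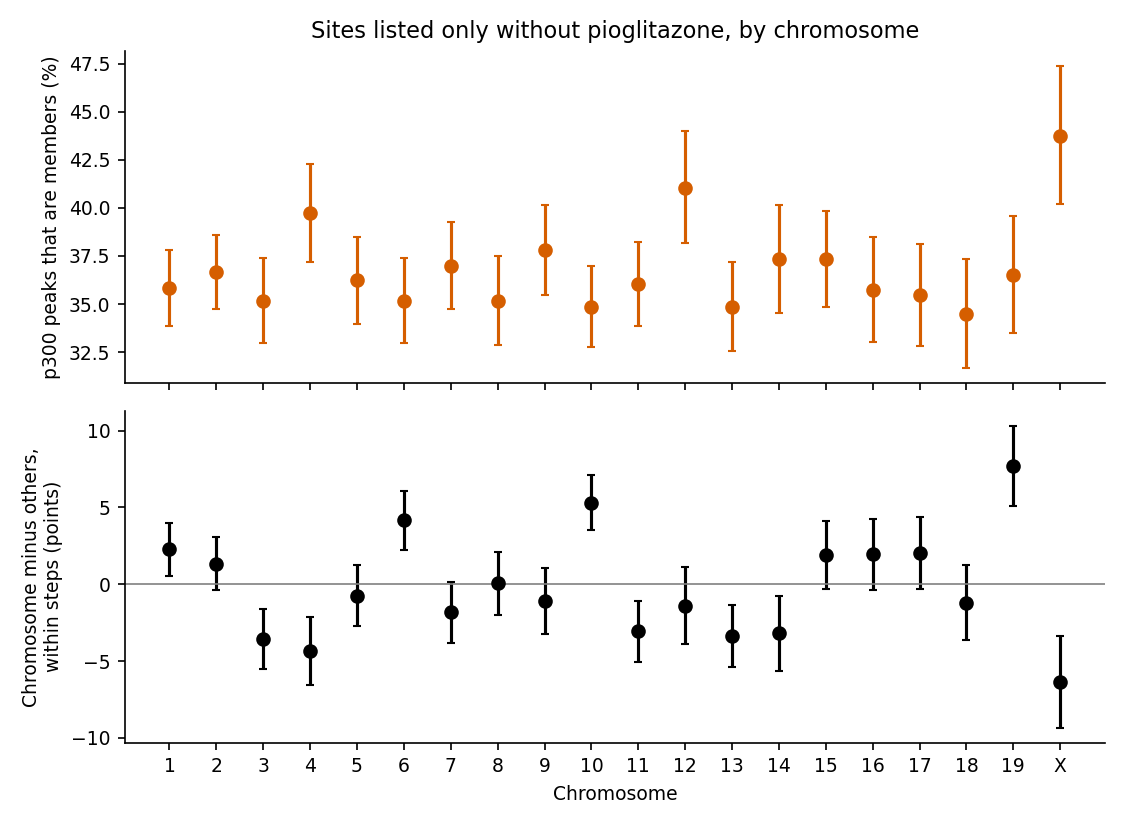
Upper panel: share of p300 peaks without pioglitazone (%) on each chromosome that were listed only there, with exact 95% intervals. Lower panel: difference from all other chromosomes within 10% steps of the list (percentage points, with 95% intervals); chromosome X is highest in the upper panel (43.8%) and lowest in the lower (-6.35 points).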

How the data were processed

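ChIP-seq peak lists of 4 libraries from MS5 cells were used, 1 list for each antibody and treatment. Bowtie2 2.3.4.3, SAMtools 1.9 and HOMER were used with mouse build mm9, per the submitters' processing notes. Peak-calling settings, depth and use of the input were not given in the sources used here. The score deposited by the authors is 1 for every peak, so peaks have no height. Positions are given from 1, in mm9. Neither sequence nor annotation of mm9 was at hand, so sites have no gene names, sequences or motifs, and 39 of the 661 sites on chromosome 7 lay past the end of the last gene that the GRCm38 table holds.

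Peaks were merged in Python 3.11.15 (numpy 2.4.6, pandas 2.3.3) and checked with bedtools 2.31.1, which gave the same 44718 sites and 11485 members. Distances are between centres, and exclude peaks of the site itself. Shares carry exact (Clopper-Pearson) 95% intervals from scipy 1.17.1, and differences within 10 steps of row order carry Mantel-Haenszel intervals. Functions were tested on simulated data. With 1 library a group no test was possible. Named sites are the first 10, middle 3 and last 3 by row order, and the 5 domains with most sites, alone and mixed; none of the 11485 sites held 2 p300 peaks. Members and comparisons were chosen with earlier results of these data known.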

Additional observations from a re-analysis of the deposited data

How the results depend on the processing

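The number of sites was 12829 when peaks had to share 50% of the shorter one, 10768 and 9990 when centres within 500 and 1000 bp were joined, 2463 in the first 50% of p300 rows and 5173 with p300 lists of equal length. A p300 peak with pioglitazone lay near 20.5% of the sites at 5 kb, 61.2% at 25 kb and 56.8% in the first 50% of rows (at 10 kb), and a c-Jun peak without it near 14.6%, 52.6% and 44.0%. Domains made of these sites alone numbered 7768 at a joining distance of 5 kb and 2612 at 25 kb. The alternatives that follow were chosen after seeing the data. The difference from the comparator class within steps for p300 with pioglitazone was 5.72 points at 1 kb, 10.1 at 5 kb, 5.24 at 25 kb, 13.9 in the first 50% of rows, 3.86 in the last 50% and 12.1 at equal list length. For c-Jun without pioglitazone it was 0.604 at 1 kb, 10.6 in the first 50% of rows, -0.961 in the last 50%, where the sign turned, and 6.55 at equal length. For another p300 peak without pioglitazone it was 0.975 at 1 kb, 1.72 at 25 kb, 8.66 and 0.284 in the first and last 50% of rows, and 7.66 at equal length. The difference in c-Jun sites kept was -4.83 at 1 kb, -4.12 at 5 kb and -1.22 (-2.58 to 0.130) at 25 kb, where the interval holds 0. The cause of these changes was not tested. No paired analysis was possible because each group is 1 library, and for the same reason no replicate could be left out. AP-1 motifs, gene starts and gene lists were not run, since neither sequence nor annotation of mm9 was used. Unknown depth limits every count: a site absent from a list may hold p300 or c-Jun below what that library could show.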

Other observations

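How isolated the sites were depended on the list. No other peak of any of the 4 lists lay within 10 kb of 5119 sites listed only for p300 without pioglitazone, 44.6% (43.7 to 45.5), against 37.6% (36.4 to 38.9) of sites listed for p300 in both treatments without c-Jun. Inside 10% steps of the list, a comparison added after seeing the data, the sign turned and the sites were less often isolated, with a difference of -4.32 points (-5.96 to -2.68). Isolation counts p300 peaks with pioglitazone, the list that chose the sites. A comparator site's own such peak is left out, while one just beside a site of the class is counted. For that list alone the difference in neighbours within 500 bp was 4.93 points (4.39 to 5.46). The rule itself thus leans the result this way, and -4.32 is a description. In the first 50% of rows the isolated shares were 25.8% (24.1 to 27.6) and 31.7% (30.1 to 33.2), and in the last 50% they were 49.7% (48.7 to 50.7) and 45.8% (43.9 to 47.8), where the difference inside steps was -0.465 points (-2.71 to 1.78). The 5 isolated sites highest in the list, chosen after their values were seen, began with chr8:20020268-20020514 (row 835), which had no other p300 peak within 200 kb under either treatment and 2 c-Jun peaks without pioglitazone and 1 with it. The next was chr6:70676470-70676716 (row 1294), 65644 bp from a p300 peak with pioglitazone, with 3 other p300 peaks without pioglitazone and 3 with it within 200 kb. The other 3, chr19:5848373-5848619 (row 1706), chr15:100233808-100234054 (row 2192) and chr2:158023786-158024032 (row 2293), each had at least 10 other p300 peaks without pioglitazone within that distance.

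In windows of 1 Mb with 15 or more p300 sites without pioglitazone, the share listed only there ran from 5.88% to 68.8% over 960 windows, with a median of 35.3%. The lowest share was 1 of 17 sites (0.149 to 28.7%) and the highest 11 of 16 (41.3 to 89.0%). Whether the windows differed beyond counting error was not tested. The windows with most such sites, also chosen after their values were seen, were chr2:117000001-118000000 with 25 of 54 p300 sites (46.3%, 32.6 to 60.4), chr8:108000001-109000000 with 22 of 40 (38.5 to 70.7%) and chr12:86000001-87000000 with 20 of 39 (51.3%, 34.8 to 67.6). The intervals on chromosomes 2 and 12 hold 36.5%, the share over all p300 sites without pioglitazone.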
